A study of Mus musculus with 3 samples.

Results

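The 10 genes described here encode the actin filament of striated muscle, the tropomyosins that lie along it and the proteins that cap or seed its pointed end. They are Acta1, Actc1, Acta2, Tpm1, Tpm2, Tpm3, Tmod1, Tmod4, Lmod2 and Lmod3, chosen by symbol from the 46316 gene symbols in the count tables. All 10 were in the tables, over 59 of the 139023 transcript rows. RNA was sequenced from C2C12 cells, an immortalised mouse myoblast line, 4 days after myogenic differentiation was started. The rescue library came from Drp1 knockout cells transiently expressing FLAG-Drp1, the KO library from Drp1 knockout cells and the WT library from wild-type cells. Drp1 is the GTPase that divides mitochondria. How the knockout was made, whether it was 1 clone, and from which promoter FLAG-Drp1 was expressed are not stated in the labels. There was 1 library per group, so the differences below could not be set against replicate error, and they carry no p-values.

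In a striated muscle fibre, actin polymerises into thin filaments, on which myosin pulls. Tropomyosin dimers run along each filament and, with troponin, block or expose the myosin sites as calcium changes. Tropomodulins cap the pointed end and limit filament length, and leiomodins, which are related to them, nucleate actin and favour longer filaments. Developing skeletal muscle cells express cardiac and smooth muscle actin together with skeletal actin, and later keep mostly the skeletal form. Mutations of several of these genes, among them ACTA1, TPM2, TPM3 and LMOD3, cause nemaline myopathy in people.

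The gene count was the transcript row with the highest count summed over the 3 libraries, and gene counts totalled 13925300 in rescue, 13790445 in KO and 13894082 in WT. A difference is a log2 ratio of scaled counts with a 95% counting interval, and a gene was called higher or lower at 2-fold or more. Dnm1l, the gene of Drp1, had 1481 counts in rescue, 1284 in KO and 1823 in WT, 1.39-fold lower in KO than in WT. Its RNA was thus present in the library labelled KO, and an RNA level does not show whether protein was made. Of the 10 differentiated muscle markers in the list, all were detected, led by Myh3, the embryonic myosin heavy chain (77629, 62250 and 50576 counts in rescue, KO and WT). Of 6 blood and vessel cell markers, Ptprc, Pecam1 and Adgre1 had 0 counts in each library and Cdh5 and Kdr at most 1. Cd68, a macrophage marker, had 42 counts in rescue, 55 in KO and 22 in WT, and was 2.51-fold higher in KO than in WT (log2 ratio 1.33, with limits of 0.61 and 2.13). In bulk RNA, fewer differentiated cells and less RNA per cell cannot be told apart.

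The rescue library held more RNA of 9 of the 10 genes than the KO library, by amounts below 2-fold, while KO differed from WT in both directions. Of all genes, 50.3% lay above 0 in rescue against KO and 50.1% in KO against WT. Of the 10 genes, 1 was called in KO against WT: Lmod3 was 3.05-fold lower. By gene family, the muscle actins were close to or above WT in KO, Tpm2 and Tpm3 were below WT while Tpm1 was slightly above, and the leiomodins were below WT while Tmod1 was above. Among all 13382 genes with a mean of at least 1 CPM (scaled counts relative to library size), the share past 2-fold in KO against WT was 5.35% upward and 4.07% downward. At a looser limit of 1.5-fold, 0 of 10 were higher and 3 of 10 (Tpm2, Tpm3 and Lmod3) lower, beside 12.1% and 10.4% of all genes. The median log2 ratio of the 10 was -0.0045 and that of all genes 0.00063.

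In rescue against KO, 0 of the 10 genes reached 2-fold in either direction, where 1.30% of all genes were higher and 0.568% lower. At 1.5-fold, 4 of 10 were higher (Actc1, Tpm2, Lmod2 and Lmod3) and 0 lower, beside 3.83% and 2.78% of all genes. The median log2 ratio of the 10 was 0.46, against 0.0029 for all genes. In rescue against WT, 0 of 10 reached 2-fold, beside 4.59% of all genes higher and 3.07% lower. At 1.5-fold, 3 of 10 were higher (Actc1, Tpm1 and Tmod1) and 1 lower (Lmod3), beside 10.4% and 8% of all genes. The median was 0.47, against 0.00995 for all genes. The comparisons share libraries: each library enters a pair of them, so they are not independent of each other.

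**Figure D1:**
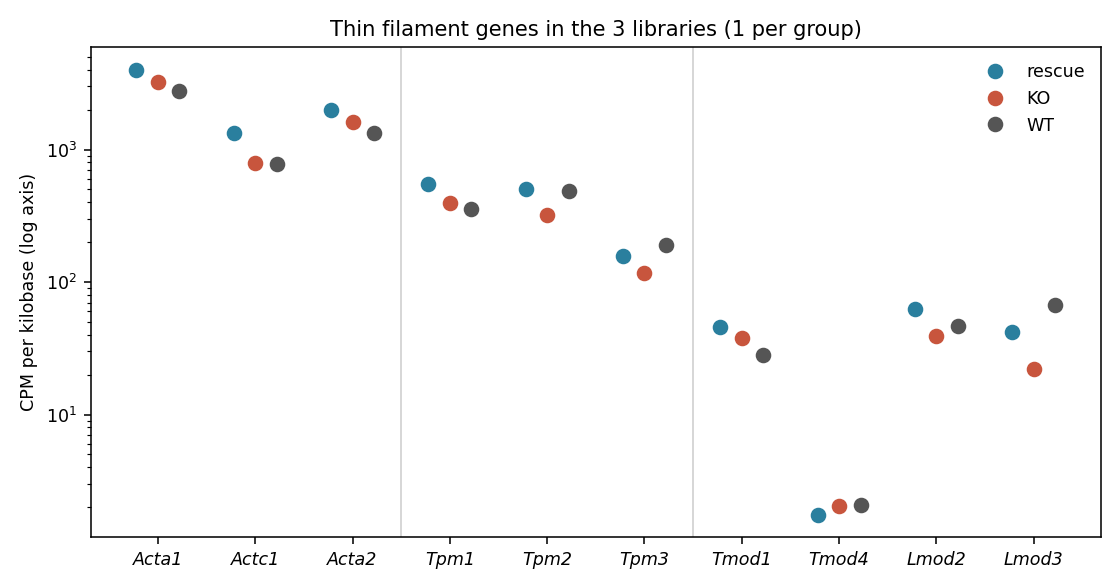
Level of each of the 10 genes in TMM-scaled CPM per kilobase of transcript (log axis) in the rescue, KO and WT libraries, 1 point per library. Acta1 was highest in all 3 libraries, between 2789 and 4009, and Tmod4 lowest, between 1.75 and 2.07.

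Levels between genes were compared per kilobase of the transcript row used, in CPM per kilobase. Acta1, Acta2 and Actc1 held the top 3 places in that order in each library, and Tpm3 held the sixth and Tmod4 the last. In rescue and in KO the order below the actins was Tpm1, Tpm2, Tpm3, Lmod2, Tmod1, Lmod3 and Tmod4. In WT, Tpm2 stood above Tpm1, and Lmod3 stood above Lmod2 and Tmod1. The neighbours that counting error could not separate were Lmod2 and Tmod1 in KO, whose ratio was 1.05 with an interval of 0.966 to 1.132. Tmod1 and Lmod3 in rescue were barely separated, at a ratio of 1.08 with an interval of 1.003 to 1.16. These places also depend on the row used for each gene. The Tpm1 row has 3288 bases. A shorter row of 1210 bases, Tpm1.1, had 23559 counts in rescue, 16069 in KO and 14553 in WT. Per kilobase of that shorter row, Tpm1 would stand above Actc1 in each library.

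The muscle actins were examined first. Acta1, skeletal muscle actin and the main actin of adult fibres, had 86717 counts in rescue, 70182 in KO and 61533 in WT. Rescue was the highest and WT the lowest of the 3 libraries. Acta1 in rescue exceeded KO 1.24-fold (log2 ratio 0.31, with limits of 0.29 and 0.32) and 1.16-fold higher in KO than in WT (log2 ratio 0.22, with limits of 0.20 and 0.23). Rescue was 1.44-fold above WT.

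Actc1, cardiac actin and a fetal form in skeletal muscle, had 26634 counts in rescue, 15957 in KO and 16033 in WT. Here rescue stood apart, and KO and WT were nearly equal. Rescue was 1.67-fold above KO (log2 ratio 0.74, with limits of 0.71 and 0.77). KO differed from WT by a log2 ratio of 0.02, with an interval that held 0 (-0.01 to 0.05), and the result with the length trend removed, given below, was larger.

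Acta2, smooth muscle actin, which is also made by myoblasts and by activated fibroblasts, had 70373 counts in rescue, 57215 in KO and 48154 in WT. Its order of libraries was that of Acta1. Rescue was 1.23-fold above KO (log2 ratio 0.30, with limits of 0.29 and 0.32) and KO was 1.21-fold above WT (log2 ratio 0.27, with limits of 0.26 and 0.29).

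The smooth muscle genes Myh11, Myocd and Cnn1 had at most 13 counts in any library. Over the 8 smooth muscle markers the summed level was 490 CPM in rescue, 370 in KO and 452 in WT. The lower sum in KO came from Synpo2, an actin-bundling protein: without it the sum was 274.8 CPM in rescue, 251.4 in KO and 252.3 in WT. Actg2 and Lmod1 of the same list were higher in KO than in WT, like Acta2, with log2 ratios of 0.48 and 0.41. Fibroblast markers did differ in the direction of Acta2 between KO and WT. Of 6 above the low-count limit, 4 were at least 2-fold higher in KO than in WT (Postn, Col1a1, Fap and Pdgfra) and 1, Dcn, lower, with a summed level of 5020 CPM in rescue, 6047 in KO and 2912 in WT over all 8. That sum was lower in rescue than in KO, where Acta2 was higher in rescue. Col3a1 was the largest part of it, at 2927 CPM in rescue and 3815 in KO. Of the 6 markers, 4 lay below 0 in rescue against KO and 2 lay above, Postn and Dcn, with log2 ratios of 0.09 and 0.007. Of the 8 cardiac markers, Myh6, a cardiac myosin heavy chain, moved with Actc1, and in rescue it exceeded KO 2.23-fold. The summed level of the list was 50.8 CPM in rescue, 27.8 in KO and 29.0 in WT, and without Myh6 it was 10.5, 9.71 and 10.3 CPM. Nkx2-5 and Tnni3 had log2 ratios of 0.02 and 0.22 in rescue against KO, both with intervals that held 0, and Nppb had 5, 3 and 28 counts in rescue, KO and WT. The cardiac markers Nppa, Myl7 and Tbx5 had 0 counts in each library. Whether cells of another type took part in the Acta2 or Actc1 differences was not tested.

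Cytoplasmic actins were not higher in rescue than in KO. Actb, beta actin, had 41209 counts in rescue, 41409 in KO and 46258 in WT, and its log2 ratio was -0.0041 in rescue against KO (interval -0.02 to 0.02) and -0.13 in KO against WT. With the trend with transcript length removed, these values were -0.09 and -0.08. Actg1, gamma actin, had 19613, 20819 and 22290 counts in rescue, KO and WT. Actb and Actg1 were thus highest in WT, the library in which Acta1 and Acta2 were lowest.

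Log2 ratios that involved KO also varied with transcript length over all genes. Removing that trend changed Acta1 and Actc1, which have short transcripts, more than any other member in both comparisons with KO. For KO against WT, the log2 ratio with the trend removed was 0.33 for Acta1, 0.15 for Actc1 and 0.32 for Acta2. For rescue against KO, it was 0.18 for Acta1, 0.59 for Actc1 and 0.25 for Acta2. The directions were the same with and without the trend, and the size of the Acta1 difference between rescue and KO moved by over 1.5 times on the log2 scale.

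Since the 3 muscle actins encode nearly the same protein, their coding sequences are shown to let a reader judge how well reads could tell them apart. The first 90 coding bases of each, from GENCODE transcripts of GRCm38, are printed 5′ to 3′ with capitals at the 26 positions where the 3 genes are not identical. All 3 genes lie on the minus strand, on chromosomes 8 (Acta1), 2 (Actc1) and 19 (Acta2).
Acta1 coding start: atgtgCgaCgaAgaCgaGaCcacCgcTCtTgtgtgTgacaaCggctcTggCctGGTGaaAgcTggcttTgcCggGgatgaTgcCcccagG
Actc1 coding start: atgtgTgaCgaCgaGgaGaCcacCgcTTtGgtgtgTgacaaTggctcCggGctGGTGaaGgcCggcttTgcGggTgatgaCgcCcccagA
Acta2 coding start: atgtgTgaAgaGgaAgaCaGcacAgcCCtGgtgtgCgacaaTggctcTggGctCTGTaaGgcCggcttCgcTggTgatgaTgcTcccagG
Over the whole coding sequence of 1134 bases, Acta1 was identical to Actc1 at 86.2% of bases and to Acta2 at 85.4%, and Actc1 to Acta2 at 82.5%. The longest identical stretch of any pair was 29 bases. The read length and the treatment of reads that match several genes are not stated in the labels, so some exchange of reads between these genes cannot be checked from the counts.

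Promoters of the 3 actins are shown because Acta1 and Actc1 are textbook targets of SRF, serum response factor, which binds the CArG box. The windows span the RefSeq start in GRCm38.p6, on the minus strand, at chr8:123894726-123895025 (Acta1), chr2:114052826-114053125 (Actc1) and chr19:34255324-34255623 (Acta2). Capitals mark matches, on either strand, to the CArG box or to TATAAA. The matches do not overlap each other.
Acta1 promoter: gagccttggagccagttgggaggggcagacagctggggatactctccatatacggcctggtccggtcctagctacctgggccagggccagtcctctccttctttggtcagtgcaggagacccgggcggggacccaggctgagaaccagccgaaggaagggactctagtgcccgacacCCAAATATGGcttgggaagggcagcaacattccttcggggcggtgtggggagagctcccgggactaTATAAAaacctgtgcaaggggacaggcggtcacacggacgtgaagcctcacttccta
Actc1 promoter: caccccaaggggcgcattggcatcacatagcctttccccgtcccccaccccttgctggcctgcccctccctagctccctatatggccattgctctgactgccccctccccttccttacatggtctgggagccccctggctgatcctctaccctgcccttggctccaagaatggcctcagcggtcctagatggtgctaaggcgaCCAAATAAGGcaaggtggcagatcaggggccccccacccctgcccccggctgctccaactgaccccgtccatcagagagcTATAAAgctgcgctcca
Acta2 promoter: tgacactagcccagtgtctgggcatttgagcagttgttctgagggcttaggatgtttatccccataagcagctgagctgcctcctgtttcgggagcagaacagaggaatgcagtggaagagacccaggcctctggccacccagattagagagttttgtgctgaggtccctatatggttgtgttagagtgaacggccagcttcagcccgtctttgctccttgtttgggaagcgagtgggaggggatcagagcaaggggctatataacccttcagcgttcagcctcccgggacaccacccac
The CArG box matched once in Acta1 (CCAAATATGG, starting at position -73 from the start) and once in Actc1 (CCAAATAAGG, position -47), and the Acta2 window held no match. The search pattern was CCWWWWWWGG, with W for A or T, and allowed no mismatch. Near matches, such as ccctatatgg and ccttgtttgg in the Acta2 window, were therefore not counted. TATAAA matched at position -7 in Acta1 and at position 34 in Actc1, the latter downstream of the annotated start. All positions are counted from the annotated RefSeq start, and whether transcription began there in these cells was not tested. RefSeq promoter windows were found for 9 of the 10 genes, with 2 windows for Tpm3, and not for Lmod3. Of these 10 windows, 2 held a CArG box, 2 held TATAAA, 9 held CANNTG and 4 held CATTCC. Among all 32851 windows of the table, 1.63% held a CArG box, 13.6% TATAAA, 72.3% CANNTG and 14.7% CATTCC. The MEF2 site was in 0 of the 10 windows and in 3.19% of all. A match in these letters is no evidence of binding, and a missing match says only that the letters are not in the window.

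**Figure D2:**
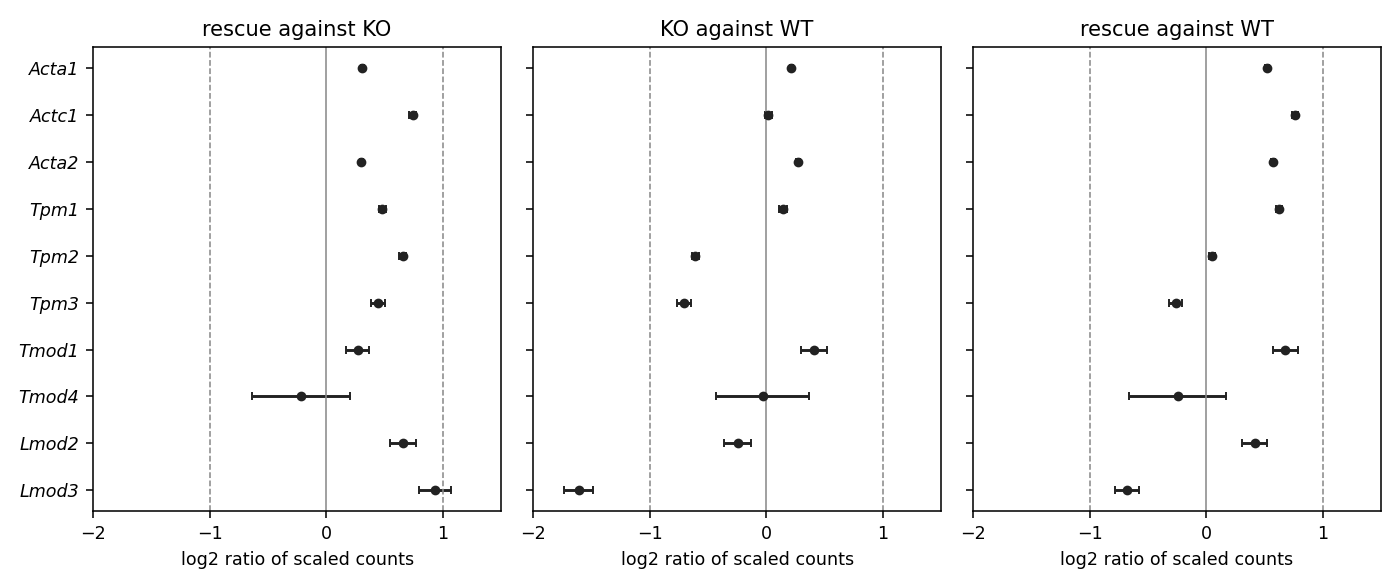
Log2 ratio of scaled counts for each gene (points) with its 95% counting interval (bars) in rescue against KO, KO against WT and rescue against WT, with 1 library per group and dashed lines at 2-fold. In rescue against KO, 9 genes lay above 0, beside 50.3% of all genes, and in KO against WT only Lmod3 lay beyond 2-fold. The intervals reflect the counting error of reads alone.

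The tropomyosins differed from each other in KO against WT. Tpm1, the alpha tropomyosin of fast and cardiac muscle, had 24997 counts in rescue, 17954 in KO and 16536 in WT. Rescue was well above the others, and KO was slightly above WT. Rescue was 1.40-fold above KO (log2 ratio 0.48, with limits of 0.45 and 0.51), and KO was 1.11-fold above WT (log2 ratio 0.14, with limits of 0.11 and 0.17).

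Tpm2, the beta tropomyosin of skeletal muscle, had 22576 counts in rescue, 14358 in KO and 22254 in WT. KO was the low library, and rescue and WT were nearly equal. KO was 1.52-fold below WT (log2 ratio -0.61, with limits of -0.64 and -0.58), rescue lay 1.58-fold above KO (log2 ratio 0.66, with limits of 0.63 and 0.69), and rescue lay 1.03-fold above WT.

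Tpm3, the tropomyosin gene of slow fibres, which also gives cytoplasmic forms, had 4860 counts in rescue, 3579 in KO and 5944 in WT. KO was again the lowest, and rescue lay between KO and WT. KO was 1.63-fold below WT (log2 ratio -0.71, with limits of -0.77 and -0.65), rescue exceeded KO 1.36-fold (log2 ratio 0.44, with limits of 0.38 and 0.51), and rescue lay 1.20-fold below WT (log2 ratio -0.26, with limits of -0.32 and -0.21). Tpm3-rs7, a locus related to Tpm3 by name, had 383 counts in rescue, 554 in KO and 468 in WT. It was highest in KO, where Tpm3 was lowest, and both were lower in rescue than in WT. Reads could be exchanged between such copies.

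Ratios of tropomyosin genes within a library do not depend on the scaling between libraries. The ratio of Tpm2 to Tpm1 per kilobase was 0.914 in rescue (interval 0.897 to 0.930), 0.809 in KO (0.791 to 0.827) and 1.36 in WT (1.33 to 1.39). WT was the library with more Tpm2 than Tpm1 by this measure, which rests on rows of 3250 bases for Tpm2 and 3288 for Tpm1. With counts summed over rows, of which Tpm1 has 23 and Tpm2 has 4, the ratio was below 1 in WT too, at 0.234. Rows of a gene share most reads, so that sum counts Tpm1 reads more often than Tpm2 reads. Which of the 2 genes was more abundant therefore depends on the treatment of rows. The ratio of Tpm3 to Tpm1 was 0.286 in rescue (interval 0.278 to 0.295), 0.294 in KO (0.283 to 0.304) and 0.529 in WT (0.514 to 0.545). The intervals of rescue and KO overlapped for this ratio, and WT lay clearly above both. Of the summed level of the 3 tropomyosins per kilobase, Tpm1 made up 45.5% in rescue, 47.6% in KO and 34.6% in WT. The sum itself was 1215 CPM per kilobase in rescue, 832 in KO and 1035 in WT.

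**Figure D3:**
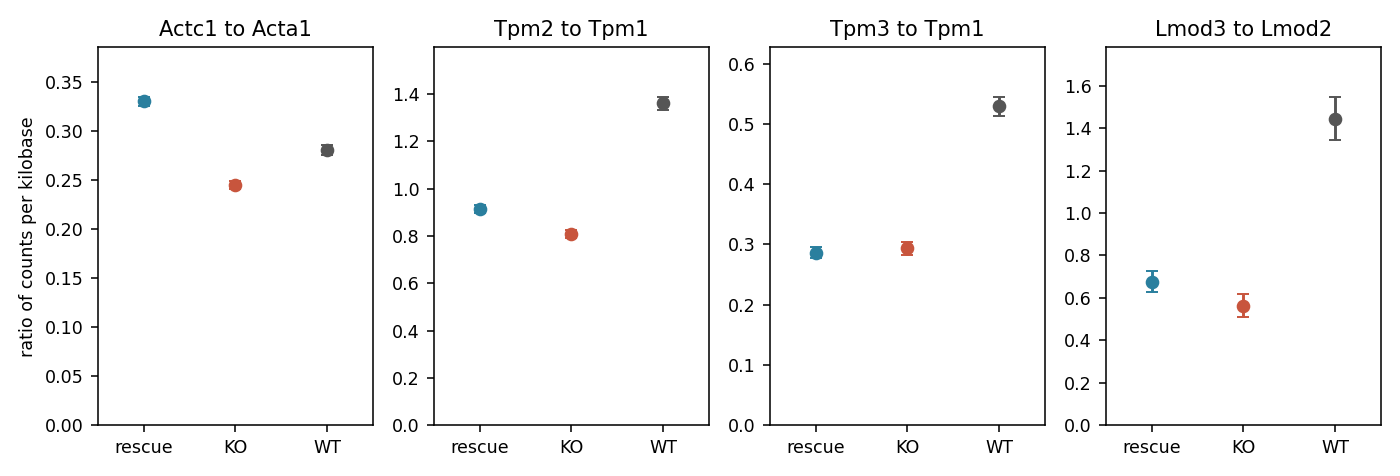
Ratio of the counts per kilobase of 2 genes within each library (points) with 95% counting intervals (bars), for rescue, KO and WT, 1 library each. Tpm2 to Tpm1, Tpm3 to Tpm1 and Lmod3 to Lmod2 were lower in both knockout libraries than in WT, whereas Actc1 to Acta1 was highest in rescue at 0.330.

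Tropomyosin genes give many isoforms from alternative starts, an internal exon pair and alternative ends, and the tables held 23 rows for Tpm1, 4 for Tpm2 and 15 for Tpm3. A read was apparently counted for each transcript it overlapped, so the rows of a gene share most reads and only their differences carry isoform information. In GENCODE, Tpm1.1, the striated muscle form, and Tpm1.6, a high molecular weight form of non-muscle cells, share 8 exons and differ in their last exons. The Tpm1.1 row had 23559 counts in rescue, 16069 in KO and 14553 in WT. The Tpm1.6 row had 24864 counts in rescue, 17782 in KO and 16388 in WT.

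The ratio of the Tpm1.1 to the Tpm1.6 row was 0.948 in rescue, 0.904 in KO and 0.888 in WT. The log2 ratio of rescue to KO was therefore larger for the Tpm1.1 row (0.55) than for the Tpm1.6 row (0.49). The rows of Tpm1.10 (0.54) and Tpm1.12 (0.55), whose ends were not compared, lay near Tpm1.1. Whether the striated end set these rows apart was thus not tested. No counting interval is given for a ratio of rows, because they share reads. The rows of Tpm1.1 and Tpm1.5, which differ in the 76-base exon 6, differed by at most 4 counts in any library, so the choice of exon 6 could not be read from these tables. The 4 rows of Tpm2 were alike in each comparison, with log2 ratios between -0.62 and -0.61 for KO against WT and between 0.66 and 0.68 in rescue against KO.

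The rows of Tpm3 fell into separate sets. Variant 2, which starts upstream and has the short striated end, had 2756 counts in rescue, 1659 in KO and 3222 in WT. Variant 1, which has the same start, another exon 6 and a long last exon, is the row used for the gene. Variant 2 was 1.91-fold below WT in KO (log2 ratio -0.93, with limits of -1.02 and -0.85) and 1.66-fold above KO in rescue (log2 ratio 0.74, with limits of 0.65 and 0.82). Both differences were larger than those of variant 1, and the ratio of variant 2 to variant 1 was 0.567 in rescue, 0.464 in KO and 0.542 in WT. Over all 15 rows, log2 ratios ran from -0.93 to -0.65 between KO and WT and from 0.39 to 0.74 between rescue and KO.

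Starts of Tpm3 can be compared only in part. Variant 1 begins at the upstream start used by the long muscle form, and variant 3 begins downstream and shares 7 exons with it. The count of variant 1 exceeded that of variant 3 by 276 in rescue, 94 in KO and 316 in WT. The ratio of variant 1 to variant 3 was 1.06 in rescue, 1.027 in KO and 1.056 in WT. KO had the smallest difference and the smallest ratio. Shared exons were matched by overlap and can differ in their ends, so the difference is not a number of reads at the starts alone. The same comparison in Tpm1, between Tpm1.5 and Tpm1.13, gave differences of 2894 in rescue, 2036 in KO and 1663 in WT. Such differences scale with the level of the gene, and Tpm1 was itself lowest in WT and highest in rescue. The ratio of Tpm1.5 to Tpm1.13 was nearly the same in the libraries, at 1.14 in rescue, 1.145 in KO and 1.129 in WT.

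**Figure D4:**
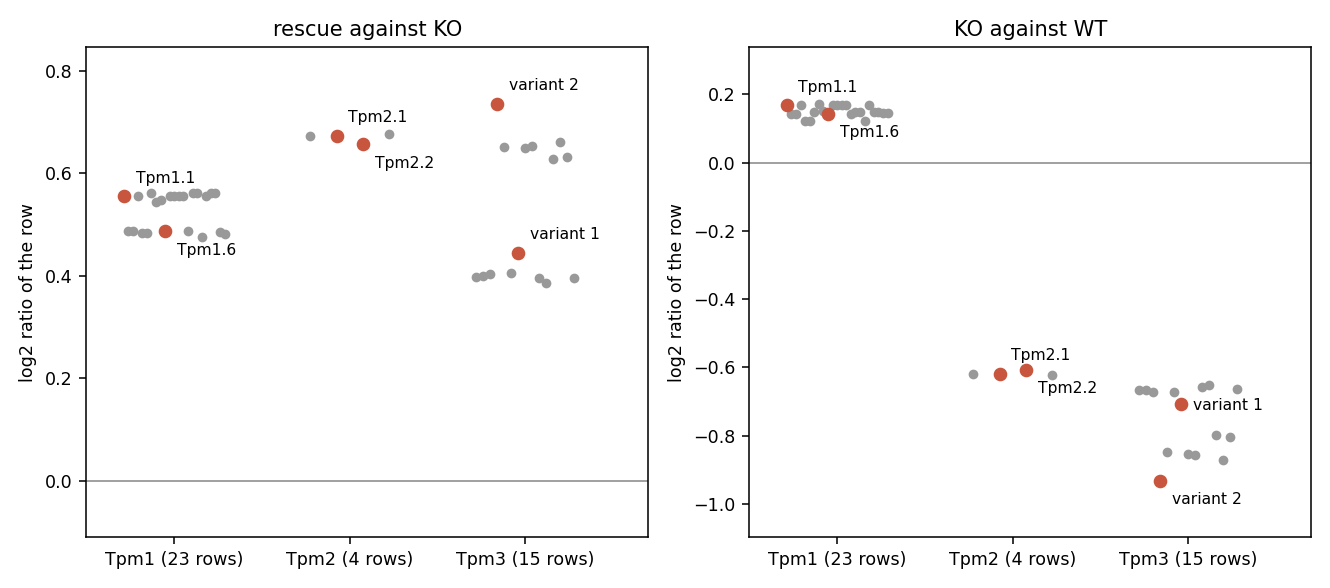
Log2 ratio of each transcript row of Tpm1 (23 rows), Tpm2 (4 rows) and Tpm3 (15 rows) in rescue against KO and in KO against WT, 1 point per row, with named rows in red. In rescue against KO the Tpm1.1 row (0.55) lay above the Tpm1.6 row (0.49), and Tpm3 variant 2 lay furthest from 0 among the Tpm3 rows in both panels.

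Of the pointed-end proteins, leiomodins were below WT in KO and Tmod1 was above it. Lmod3, a leiomodin of skeletal muscle needed for thin filament assembly, had 1285 counts in rescue, 676 in KO and 2098 in WT. Rescue lay between the others. KO was 3.05-fold below WT (log2 ratio -1.61, with limits of -1.74 and -1.48), which lies wholly beyond 2-fold. Rescue was 1.9-fold above KO (log2 ratio 0.93, with limits of 0.79 and 1.07) and still 1.6-fold below WT (log2 ratio -0.68, with limits of -0.78 and -0.58). The 3 rows of Lmod3 differed by at most 5 counts in any library.

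Lmod2, the leiomodin best known from the heart, had 1689 counts in rescue, 1070 in KO and 1291 in WT. Rescue was the highest library, and KO the lowest. Rescue was 1.58-fold above KO (log2 ratio 0.66, with limits of 0.55 and 0.77) and 1.33-fold above WT, and KO was 1.19-fold below WT (log2 ratio -0.25, with limits of -0.36 and -0.13). The ratio of Lmod3 to Lmod2 per kilobase was 0.676 in rescue (interval 0.628 to 0.727), 0.561 in KO (0.509 to 0.618) and 1.44 in WT (1.35 to 1.55). By this measure Lmod3 was the more abundant leiomodin in WT alone. With counts summed over rows, of which Lmod3 has 3 and Lmod2 has 1, the ratio was above 1 in every library, at 2.02 in rescue, 1.68 in KO and 4.33 in WT.

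Tmod1, a tropomodulin of muscle and red cells, had 1796 counts in rescue, 1493 in KO and 1145 in WT. It followed the order of Acta1 and Acta2. KO was 1.33-fold above WT (log2 ratio 0.41, with limits of 0.30 and 0.52), and rescue exceeded KO 1.21-fold (log2 ratio 0.27, with limits of 0.17 and 0.37) and WT 1.6-fold.

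Tmod4, the skeletal muscle tropomodulin, was nearly undetected. Its highest row, a predicted transcript of 3786 bases, had 91 counts in rescue, 106 in KO and 110 in WT. The curated row of 1242 bases had 10 counts in rescue, 10 in KO and 11 in WT, and the other 3 predicted rows had 10 to 12. Most counts of the row used therefore lay outside the curated transcript. In the RefSeq table the Tmod4 gene overlaps its neighbour Vps72, a widely expressed chromatin gene with 805, 742 and 793 counts in rescue, KO and WT. The interval of Tmod4 held 0 in all 3 comparisons, with a log2 ratio of -0.22 in rescue against KO (interval -0.64 to 0.20) and -0.03 in KO against WT (interval -0.43 to 0.37). At this depth a difference of the curated transcript was not detectable.

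Paralogs that belong to other filaments were compared as a list: Actb, Actg1, Actg2, Tpm4, Tmod2, Tmod3 and Lmod1. Tmod2, a tropomodulin of neurons, had at most 2 counts in any library, and 0 of the other 6 reached 2-fold in any comparison. Their median log2 ratio was 0.03 in rescue against KO, beside 0.46 for the 10 genes, and -0.10 in KO against WT. Without the trend with length they came to -0.06 and -0.05, so the sign in rescue against KO turned. Lmod1, the smooth muscle leiomodin, had 248 counts in rescue, 186 in KO and 142 in WT, and Actg2, enteric smooth muscle actin, had 507, 488 and 355. Both were lowest in WT, like Acta2. Tpm4, a cytoplasmic tropomyosin, had 6729 counts in rescue, 6436 in KO and 7404 in WT, and Tmod3, the ubiquitous tropomodulin, had 550, 579 and 660.

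Partners of the thin filament, such as nebulin, the troponins and capping proteins, were mostly lower in KO than in WT and mostly higher in rescue than in KO. Of 22 genes, 17 lay below 0 in KO against WT with a median of -0.23, and 19 lay above 0 in rescue against KO with a median of 0.34. With the length trend removed, 15 lay below 0 in KO against WT with a median of -0.11, and 20 above 0 in rescue against KO with a median of 0.30. Calls were few. Cap2, a cyclase-associated protein that acts on actin in muscle, had 22 counts in rescue, 10 in KO and 90 in WT, and was 8.47-fold below WT in KO (log2 ratio -3.08, with limits of -4.25 and -2.20). Nrap, which anchors thin filaments during myofibril assembly, had 2808 counts in rescue, 2444 in KO and 838 in WT, and was 2.97-fold above WT in KO. In rescue against KO, Cap2 alone reached 2-fold, on 22 and 10 counts (log2 ratio 1.1, with limits of 0.0025 and 2.38).

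Klhl41, a kelch protein that stabilises nebulin and is mutated in nemaline myopathy, had 5870 counts in rescue, 3344 in KO and 6310 in WT. It was 1.85-fold below WT in KO and 1.76-fold above KO in rescue. Neb itself, the giant protein along the thin filament, had 8328 counts in rescue, 5580 in KO and 6860 in WT. Tnnc2, fast troponin C and also in the list of muscle markers, had 12264 counts in rescue, 6326 in KO and 9325 in WT, so rescue exceeded KO 1.94-fold.

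Of SRF and its cofactors, Mrtfb was lower in rescue than in the other libraries. Srf had 977 counts in rescue, 960 in KO and 1093 in WT, and its log2 ratio was 0.03 in rescue against KO (interval -0.10 to 0.16). Mrtfb, an actin-sensing cofactor of SRF, had 693 counts in rescue, 922 in KO and 889 in WT. Its rescue level was 1.33-fold below KO (log2 ratio -0.41, with limits of -0.55 and -0.27) and 1.26-fold below WT, and with the length trend removed the log2 ratio of rescue to KO was -0.24. The list of SRF and MRTF factors and targets had medians of -0.04 (KO against WT) and -0.10 (rescue against KO) over 15 genes, and the first was -0.10 with the length trend removed. Its members diverged: Ccn2, a matricellular growth factor, was 2.16-fold higher in KO than in WT, the only call in that comparison, whereas Egr1, an immediate early gene, was 1.84-fold lower. None of the 15 (0) reached 2-fold in rescue against KO. In rescue against WT, 2 were called lower: Egr1 was 2.24-fold lower and Fos, another immediate early gene, 2.12-fold lower, on 27 counts in rescue and 59 in WT.

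Genes of actin turnover were lower in KO than in WT in 11 of 13 cases, with a median of -0.22 and no member at 2-fold. Of all genes, 50.1% lay above 0 in that comparison. With the length trend removed, 11 of 13 were again below 0 and the median was -0.09. Actn4, a non-muscle actinin, was 1.46-fold lower in KO, with 5431 counts in rescue, 6061 in KO and 8985 in WT. Twf2, a twinfilin, had 346 counts in rescue, 227 in KO and 316 in WT. Their median in rescue against KO was 0.0090, and it was -0.04 with the length trend removed.

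**Figure D5:**
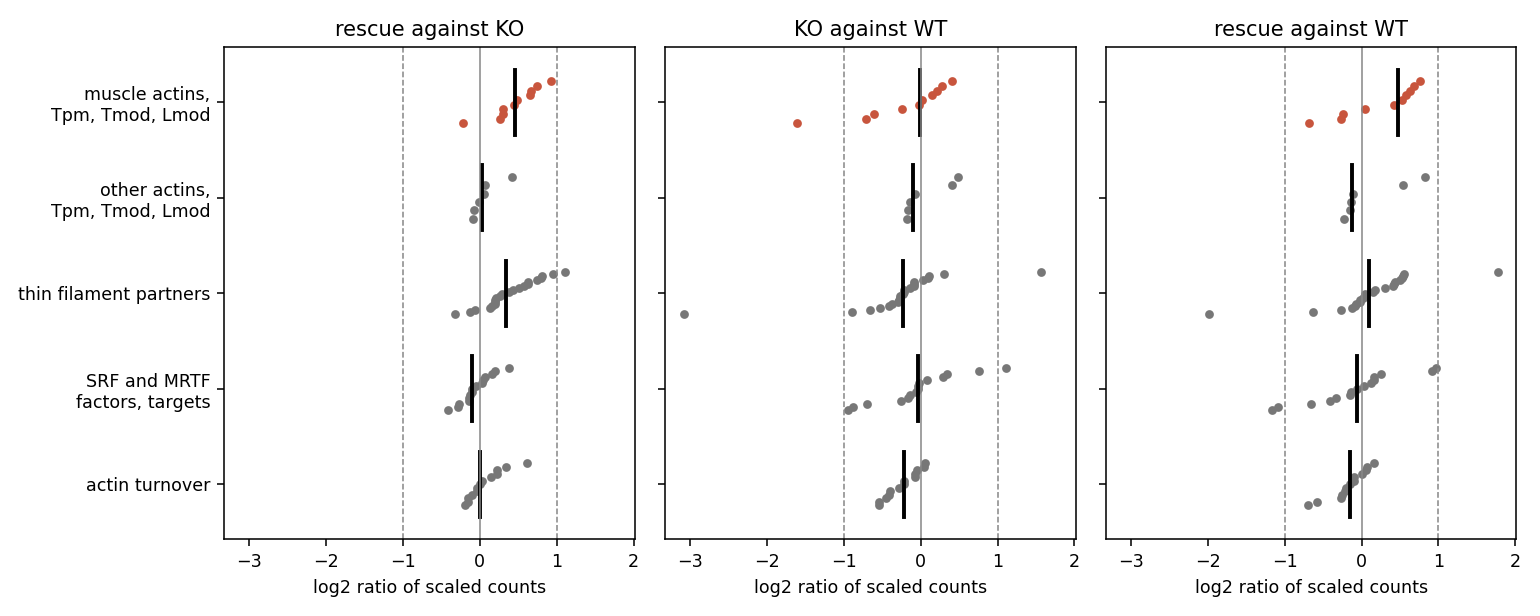
Log2 ratios of the 10 genes (red) and of the 4 other lists (grey), 1 point per gene above 1 CPM on average, with each list's median as a black bar, in rescue against KO, KO against WT and rescue against WT, 1 library per group. In rescue against KO the medians were 0.46 for the 10 genes, 0.34 for thin filament partners and 0.03 for the other actins, tropomyosins, tropomodulins and leiomodins, the last of which was -0.06 with the length trend removed.

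Differentiated muscle markers moved with several members. Of 10 such markers, 4 were at least 2-fold lower in KO than in WT (Ckm, Mb, Actn2 and Mef2c), beside 4.07% of all genes. In rescue against KO, 3 were at least 2-fold higher (Ckm, Mb and Actn2), beside 1.30% of all genes. In KO against WT, 7 of the 10 lay below 0 with a median log2 ratio of -0.50, which was -0.38 with the length trend removed. In rescue against KO, 9 lay above 0 with a median of 0.57. The summed level of the 10 was 12729.5 CPM in rescue, 10581.7 in KO and 10910.5 in WT, of which Myh3 alone gave 5637.7, 4511.67 and 3601.27 CPM. Lmod3, Tpm2 and Tpm3, which were low in KO, went with the lower markers, and Acta1, Tpm1 and Tmod1, which were above WT in KO, went with Myog, myogenin (17277, 16122 and 11853 counts in rescue, KO and WT), and with Myh3. The part of the degree of differentiation in these differences was not tested.

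To find patterns over the 3 libraries like that of a member, 6201 genes whose highest count was 500 or more were ranked by distance in the log2 ratios of KO and of rescue to WT. Genes with symbols of the LOC, Gm or Rik type were left out. For Lmod2 the nearest were Tnnt3, Myl1 and Tnni2, all of fast sarcomeres, at distances of 0.0262, 0.0890 and 0.107. Myl1, a fast myosin light chain, had 29066 counts in rescue, 17499 in KO and 22438 in WT. For Lmod3 they were Ablim3, Aamdc and Mb, at 0.174 to 0.221, so its pattern had fewer close neighbours. For Tpm1 the nearest was Ldb3, a Z-disc protein, at 0.0529, followed by Ifi27 and Map1lc3a, and for Tpm3 it was Tceal8 at 0.0122. For the other members the nearest were Banf1 (Acta1), Tspan32 (Actc1), Fibp (Acta2), Prkag3 (Tpm2), Dpm1 (Tmod1) and Pacs2 (Tmod4). Each distance rests on 3 libraries and therefore on a pair of values per gene.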

How the data were processed

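Gene expression was measured in 3 libraries of C2C12 cells, 1 per group. Per the submitters' processing notes, the authors' tools included HISAT2 2.2.1, featureCounts 2.0.0 and cutadapt 1.9.1, and the build named is GRCm39 (mm39). Their settings, strand handling among them, are not given in the sources used. The deposited count column held raw whole-number read counts per RefSeq transcript, per the file headers. The deposited RPKM values divide counts by transcript length and table total, and the deposited TPM values divide counts by length and then scale each library to the same total. Both were recomputed from the counts (largest differences 4.98e-06 and 4.40e-06), and the counts were analysed.

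Each gene took its row with the highest summed count. Library sizes were adjusted by TMM in edgeR 4.0.16 (0.989 for rescue, 1.00 for KO, 1.01 for WT) in R 4.3.3. Log2 ratios used counts plus 0.5, and 13382 genes with a mean of 1 CPM or more were kept, including all 10 described. Intervals are exact conditional (Clopper-Pearson) 95% intervals, which reflect the counting error of reads alone. PCR copies cannot be told from separate molecules, so the intervals may be too narrow for counts of molecules. The calculation was tested on simulated data. Alternatives were DESeq2 1.42.0 size factors, total counts, no filter, 2 added to each count, sums over rows, mean row lengths and removal of the length trend (medians in 20 length bins of genes with an mRNA row and at least 100 counts).

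The genes, lists and rules were chosen with earlier results of these data known. Named genes were the 10 members, the list of paralogs, up to 4 genes of each other list with the largest ratios between KO and WT or between rescue and KO, and the 3 most alike genes per member. Only some are given. Removing the length trend from the lists, and marker sums without Synpo2 or Myh6, were chosen after seeing the data. Neb, Srf and single cell type markers were named outside that rule after their values were seen. Names and neighbours came from RefSeq GRCm38.p6 and exon structures from GENCODE M21 (GRCm38), so no coordinate was matched to the counts. Overlapping or antisense neighbours, such as Tstd2 at Tmod1, make a count uncertain.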

Additional observations from a re-analysis of the deposited data

How the results depend on the processing

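No paired analysis was possible because each group had 1 library and the labels carry no replicate numbers. The count of the 10 genes called at 2-fold in each comparison was the same under all 6 alternatives to its settings, with Lmod3 in KO against WT the only call. All 10 passed the low-count filter, so the alternative without it could not change their values. Over all genes, dropping the low-count filter raised the share at least 2-fold higher and lower to 14.1% and 15.2% in KO against WT, to 12.1% and 10.2% in rescue against KO and to 14.5% and 13.9% in rescue against WT. No log2 ratio of a member changed sign under any of them. The member median in KO against WT, which lay near 0, was between -0.0258 and 0.0616, and changed sign when the length trend was removed. The medians were between 0.434 and 0.504 in rescue against KO and between 0.438 and 0.470 in rescue against WT. Of 30 single log2 ratios, 7 left their counting interval with the length trend removed, 7 with total counts only and 2 (both of Tpm1) with sums over rows.

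Ratios between genes within a library moved when lengths or rows were treated otherwise, because each gene's length or number of rows enters them directly. With mean lengths over all rows, Actc1 to Acta1 was 0.321 in rescue, 0.237 in KO and 0.272 in WT. Tpm2 to Tpm1 was then 0.777, 0.688 and 1.16 in the same libraries, and Tpm3 to Tpm1 was 0.162, 0.167 and 0.300. With sums over rows, Actc1 to Acta1 was 0.165, 0.122 and 0.140, and Tpm2 to Tpm1 was 0.152, 0.138 and 0.234. Tpm3 to Tpm1 was then 0.154, 0.159 and 0.291, and Lmod3 to Lmod2 was 2.02, 1.68 and 4.33. In each of these settings the order of the 3 libraries was that of the main result, but with sums over rows Tpm2 to Tpm1 in WT lay below 1 and Lmod3 to Lmod2 in rescue and in KO lay above 1, on the other side from the main result. With 1 library per group, depth limits genes of low count, among them Tmod4, Cap2, Fap (47 counts in KO and 15 in WT), Cd68, Fos and Actn2 in rescue against KO (89 and 31 counts), and biological variation could not be estimated for any gene.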
